A study of Homo sapiens with 18 samples.

Results

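The comparison concerned AP-2γ overexpression without WWOX overexpression (KC) against the blank control (KK) in the bladder carcinoma cell lines RT-112 and HT-1376, paired by cell line. It used 4 of the 18 CAGE-seq libraries of the series, 1 library per variant in each line. CAGE-seq sequences the capped 5′ ends of RNA, so that 1 transcript gives 1 tag whatever its length, and the values of each gene were deposited by the authors in CPM, a count scaled to the depth of the library. KK cells received blank lentivirus in the first and in the second stable transduction, whereas KC cells received blank lentivirus first and then AP-2γ from the pLKO-Neo-CMV system, in which the CMV promoter is active in most cell types. Both variants therefore carried a blank first integration and were selected with puromycin and then with G418, at an MOI of 3 in each step. RT-112 was cultured in RPMI-1640 and HT-1376 in DMEM, so the cell line and the medium cannot be told apart. Whether a variant was 1 clone or a mixed population is not given in the sources used here. Of the 16575 genes in the table, 11057 had at least 5 CPM in at least 1 of the 4 libraries and were retained. A change is the difference between KC and KK on the log2(CPM + 0.5) scale within a line, on which 1 is a 2-fold difference; the added 0.5 CPM understates the change of low genes.

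AP-2γ, encoded by *TFAP2C*, is a transcription factor that binds GC-rich palindromes as a dimer and shares its DNA-binding domain with AP-2α. It is known for its roles in the trophoblast, in the epidermis and in the luminal breast epithelium, where it acts on hormone receptor and ERBB genes. In the series, AP-2γ is paired with WWOX, an oxidoreductase whose WW domains bind the proline-rich motif of AP-2 proteins.

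The 4 libraries were those of epithelial cells. All 8 epithelial cell markers (*EPCAM*, *CDH1*, *KRT8*, *KRT18*, *KRT19*, *KRT7*, *CLDN4* and *CLDN7*) were retained, and their summed level was 20882.68 (KK) and 21437.66 CPM (KC) in RT-112, and 15050.59 and 14816.13 CPM in HT-1376. Of the fibroblast markers 5 of 8 were in the table with sums between 5.4 and 16.09 CPM, of the immune cell markers 2 of 8 with sums between 1.91 and 11.75 CPM, and of the endothelial markers 1 of 7 with 0.33 to 4.11 CPM. Reads on genes, recovered from the CPM, ranged from 13357102 to 17692217 per library, and 3 reads, the limit for a gene without reads, were worth 0.16 to 0.213 CPM. Across genes, KC and KK correlated with r = 0.988 in RT-112 and 0.955 in HT-1376, and each of the 4 libraries correlated best with the libraries of its own line. Low levels of genes of the CAL-29 line were found in the 5 HT-1376 libraries other than KK. Of 68 genes with at least 20 CPM in CAL-29 KK and under 0.5 CPM in KK of the other lines, 8 stood at 10% or more and 30 at 1% or more of their CAL-29 KK level in HT-1376 KC (median 0.75%). In the KA, WK, WA and WC libraries of HT-1376, 8 to 13 of these genes stood at 10% or more and 23 to 39 at 1% or more (medians 0.6% to 2.2%). HT-1376 KK cannot be compared with them in this way, since the genes were chosen for a low level in it. The median share is not a rate that holds for each gene, and the source of these reads was not tested. The library labelled CAL-29 KC correlated with HT-1376 libraries (median r = 0.94) more than with those of CAL-29 (0.741), and it was left out of the effect. In these bulk samples, fewer cells with a transcript and less of it per cell cannot be told apart. With 1 library per variant and line there was no replicate within a line. Exact (Clopper-Pearson) 95% intervals of the ratio of KC to KK are given for some genes and cover counting error only.

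The overexpressed gene was examined first. *TFAP2C* (ENSG00000087510.7, chr20:56629306-56639283 on hg38, as all coordinates here) stood at 57.95 (KK) and 263.7 CPM (KC) in RT-112, and at 158.24 (KK) and 213.93 CPM (KC) in HT-1376. In both lines the KC library was above all 5 other libraries of that line. KC thus held 4.55 times (4.26 to 4.87) the KK level in RT-112 and 1.35 times (1.28 to 1.43) in HT-1376, the line with the higher control level. Over the 12 libraries of both lines, the mean log2 change was 1.31 (SE 0.56, limma adjusted p = 0.9999). The changes of KC against KK were 2.18 in RT-112 and 0.43 in HT-1376. Tested differences between the lines, here and below, come from a separate fit of 8 libraries (KK, KC, WK and WC). That fit averages the changes with and without WWOX, and gave −0.92 for *TFAP2C* (SE 0.43, limma adjusted p = 0.9976). Outside the comparison, *TFAP2C* also stood at 179.87 CPM in the RT-112 variant with WWOX and AP-2α (WA). In HT-1376, variants without added AP-2γ stood at 68.99 (WK), 98.03 (WA) and 171.7 CPM (KA). That span is wider than the step from KK to KC in this line. The vector gives its own transcript, and whether its 5′ ends were counted at this gene is not given in the sources used here. *TFAP2A*, encoding AP-2α, was at 18.01 (KK) and 18.97 CPM (KC) in RT-112 and at 68.99 and 55.95 CPM in HT-1376. *WWOX* was at 26.04 and 25.87 CPM in RT-112 and at 22.36 and 16.95 CPM in HT-1376.

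**Figure D1:**
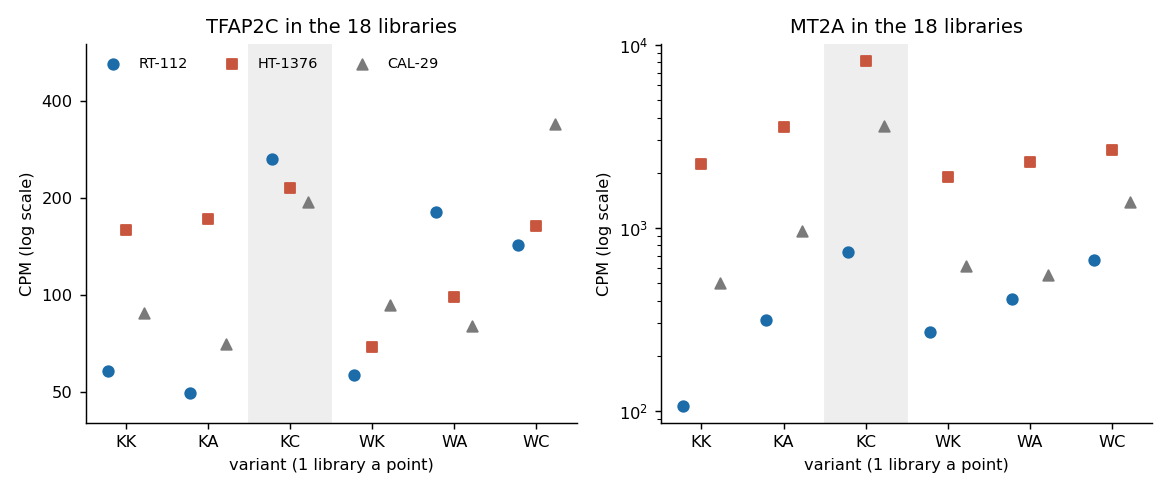
CPM on a log axis of *TFAP2C* (left) and the metallothionein gene *MT2A* (right) in the 6 variants of RT-112 (circles), HT-1376 (squares) and CAL-29 (triangles), 1 library a point, with KC shaded. KC was the highest library of RT-112 and of HT-1376 for both genes; the library labelled CAL-29 KC had the profile of HT-1376.

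No gene passed the threshold in the comparison. With limma on all 11057 genes, 0 genes (0.0%) had an adjusted p under 0.05 (smallest 0.9999), and 364 genes that were higher and 43 that were lower in KC had an unadjusted p under 0.05. DESeq2 on the recovered reads called 19 genes as higher and edgeR 2, as given in the closing section. All further statements on genes are therefore descriptions of the 4 libraries.

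The size of the changes differed between the lines. In RT-112, 207 genes (1.87%) were past 2-fold higher in KC and 34 (0.307%) past 2-fold lower, whereas in HT-1376 these were 750 (6.78%) and 386 (3.49%). Across genes, the change had an SD of 0.4 in RT-112 compared with 0.71 in HT-1376. Over all genes the median change equalled 0.13 in RT-112 and −0.06 in HT-1376, and TMM scaling moved these medians to 0.00 and 0.01, so changes in RT-112 read against a shift of 0.13. The changes of the lines were only weakly related across genes (Pearson r = 0.074, Spearman rho = 0.093, 11057 genes, which are not independent). In both lines 3432 genes (31.0%) were higher and 1887 (17.1%) were lower in KC.

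Past 2-fold in both lines, 51 genes (0.461%) were higher and 1 gene (0.00904%), *DUSP9*, was lower. These counts depend on the scale: they were 108 and 7 with a pseudocount of 0.05 CPM, 15 and 0 with 2 CPM, and the genes higher were 35 with TMM scaling. Of the 51 genes, 49 are protein coding, 21 reached 5 CPM in KC of both lines, and 19 had passed the filter only through a KC library, which by itself favours a higher value there. At 3 reads or fewer in KK were 6 of them in RT-112 and 7 in HT-1376. KK lay below the 5 other libraries of the line for 37 of the 51 genes in RT-112, against 15.1% of all genes, and for 35 in HT-1376, against 14.5% of all genes, which the choice of genes with a low KK favours. KC lay above the 5 other libraries in both lines for 6 of the 51 genes, against 5.35% of all genes, which the choice likewise favours, namely *AOC1*, *MT2A*, *DNM1L*, *CHST11*, *GLIPR2* and *STEAP4*. *DUSP9* was not below all others in KC in either line, against 1.32% of all genes that were so in both lines. Variants with WWOX gave another contrast of AP-2γ with its own control (WC against WK). Of the 51 genes, 25 (49.0%) were higher in WC than in WK in both lines, compared with 23.8% of all genes. KK and KC do not enter this contrast.

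**Figure D2:**
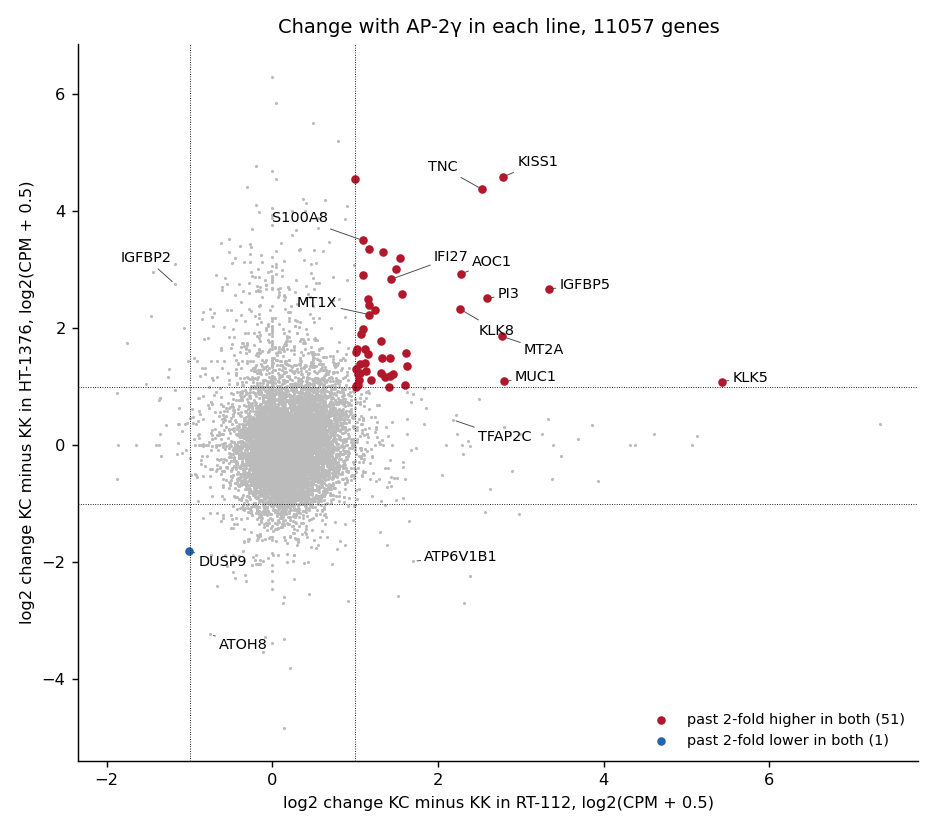
Log2 change of KC minus KK in RT-112 (x axis) and HT-1376 (y axis) for 11057 genes, with dotted lines at a 2-fold difference. The 51 genes past 2-fold higher in both lines are red and *DUSP9*, the 1 gene past 2-fold lower in both, is blue; the cloud is wider along the HT-1376 axis (SD 0.71) than along the RT-112 axis (SD 0.4).

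Metallothioneins, small cysteine-rich proteins that bind zinc and copper, were the list with the highest share of members past 2-fold higher in both lines. *MT2A* (ENSG00000125148.7, chr16:56608584-56609497) stood at 106.6 (KK) and 733.11 CPM (KC) in RT-112 and at 2243.03 and 8130.04 CPM in HT-1376. KC was the highest of the 6 libraries in each line, the next being WC in RT-112 (663.6 CPM) and KA in HT-1376 (3544.27 CPM). KC held 6.88 times (6.56 to 7.22) the KK level in RT-112 and 3.63 times (3.58 to 3.67) in HT-1376, and the mean log2 change was 2.32 (SE 0.47; limma adjusted p = 0.9999). *MT1X*, of the same cluster (chr16:56682470-56684196), stood at 36.57 and 82.89 CPM in RT-112 and at 485.44 and 2281.29 CPM in HT-1376. In RT-112 its WK library was higher than KC, at 96.6 CPM, and WC was below WK by 0.39 in RT-112 and 0.007 in HT-1376. *MT1F* and *MT1G* passed 2-fold in HT-1376 and not in RT-112; in HT-1376 *MT1F* was at 62.28 (KK) and 144.51 CPM (KC) and *MT1G* at 57.15 and 420.27 CPM. In RT-112 *MT1F* was at 30.75 and 27.9 CPM, and *MT1G* had at most 1 read in either library. Of 9 metallothionein genes listed, 8 were in the table and 4 were retained, 2 of these past 2-fold higher in both lines, against 0.461% of all genes. The ranking of the list thus rests on 2 genes of 1 cluster, and the lists were chosen with earlier results of these data known. The members called in the DESeq2 fit were *MT2A* (adjusted p = 0.00434) and *MT1X* (adjusted p = 0.0204). Metallothionein genes are near-identical copies, so the split of tags among them is uncertain.

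The promoters of *MT2A* and *MT1X* are shown because these genes were both past 2-fold higher in both lines and because the control region of *MT2A* is a textbook binding region of AP-2 proteins. That of *IGFBP5*, the gene with the smallest p of the limma fit, is shown beside them. The sequences are those of RefSeq on GRCh38.p14, from 250 bases before to 50 bases after the gene's start, at chr16:56608334-56608633 (+) for *MT2A*, chr16:56682220-56682519 (+) for *MT1X* and chr2:216695500-216695799 (−) for *IGFBP5*. Capitals mark the AP-2 palindrome GCCNNNGGC and the metal response element core TGCACNC or TGCGCNC, which mediates induction by zinc, on both strands; no matches of the motifs overlapped in these promoters.
MT2A: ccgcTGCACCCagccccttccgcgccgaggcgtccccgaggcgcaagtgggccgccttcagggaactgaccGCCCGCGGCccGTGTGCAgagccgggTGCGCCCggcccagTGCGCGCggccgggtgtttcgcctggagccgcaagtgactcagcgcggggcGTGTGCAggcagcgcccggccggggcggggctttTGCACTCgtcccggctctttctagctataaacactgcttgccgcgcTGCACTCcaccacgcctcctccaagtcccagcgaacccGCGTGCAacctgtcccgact
MT1X: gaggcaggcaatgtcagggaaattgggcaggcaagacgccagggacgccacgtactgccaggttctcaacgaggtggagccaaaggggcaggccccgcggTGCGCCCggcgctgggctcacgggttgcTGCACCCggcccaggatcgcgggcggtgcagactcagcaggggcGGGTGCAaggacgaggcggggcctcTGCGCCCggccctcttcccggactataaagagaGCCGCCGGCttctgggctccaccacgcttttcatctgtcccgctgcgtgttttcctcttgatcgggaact
IGFBP5: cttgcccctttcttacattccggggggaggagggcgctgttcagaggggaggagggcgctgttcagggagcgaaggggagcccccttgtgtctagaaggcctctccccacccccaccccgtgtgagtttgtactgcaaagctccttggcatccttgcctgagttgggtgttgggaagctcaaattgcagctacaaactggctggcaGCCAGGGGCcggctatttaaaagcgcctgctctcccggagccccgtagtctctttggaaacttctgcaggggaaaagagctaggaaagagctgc
*MT2A* and *MT1X* each held the AP-2 palindrome 1 time, beginning 179 and 20 bases before the start, and *IGFBP5* held it 1 time, 44 bases before the start. The palindrome stood in 23.2% of the 35116 promoters of the table. The metal response element core stood 8 times in *MT2A*, 4 times in *MT1X* and 0 times in *IGFBP5*; 29.6% of all promoters held it at least once, 0.601% at least 4 times and 0.0199% at least 8 times. Since 38 of the 51 genes (74.5%) and 77.9% of all retained genes had a promoter in the table, under the 80% required, the comparison of motif shares between gene sets is void. A match is a description of the letters and not a measured site.

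The genes higher in both lines by the largest smaller change were *TNC*, *PI3*, *AOC1*, *KLK8* and *MT2A*. *PI3* and *KLK8* are described here with genes of the cornified envelope, S100 and AP-2 target lists that also passed 2-fold in both lines. *PI3*, encoding the protease inhibitor elafin, stood at 6.65 (KK) and 42.54 CPM (KC) in RT-112 and at 1.91 and 13.19 CPM in HT-1376. KC was not its highest library, since KA (52.14 CPM) and WK (49.23 CPM) of RT-112 lay above it. So did WK, WA and WC of HT-1376 (47.42 to 89.95 CPM). *KLK8*, a kallikrein of the epidermis (chr19:50996007-51002711), stood at 10.86 and 54.3 CPM in RT-112 and at 3.09 and 17.44 CPM in HT-1376. The change was nearly the same in both lines, 2.27 and 2.32 (mean 2.30, SE 0.58; limma adjusted p = 0.9999). KC was nevertheless not the highest library for *KLK8*, since 3 of the 5 other libraries of RT-112 and 4 of the 5 of HT-1376 were at or above it. *KLK5*, the neighbouring kallikrein that starts the epidermal protease cascade, stood at 1.22 and 73.38 CPM in RT-112 and at 1.84 and 4.47 CPM in HT-1376. KC held 60.2 times (39.6 to 96.4) the KK level of *KLK5* in RT-112 and 2.43 times (1.53 to 3.93) in HT-1376, and the difference between the lines was −4.48 (SE 0.67; limma adjusted p = 0.4741). *S100A8*, a subunit of calprotectin, was at 702.02 and 1495.36 CPM in RT-112 and at 732.86 and 8282.78 CPM in HT-1376. For *S100A8*, 3 of the 5 other libraries of each line were at or above KC, up to 3758.06 CPM (KA) in RT-112 and 24439.04 CPM (WC) in HT-1376. WC was below WK in RT-112 for *PI3* and *S100A8*, by 0.67 and 0.63, and above it in HT-1376, by 0.67 and 0.83. *S100A7*, psoriasin, was at 0.72 and 3.05 CPM in RT-112 and at 144.43 and 1334.33 CPM in HT-1376. *MUC1*, a transmembrane mucin listed among literature targets of AP-2, was at 0.72 and 7.96 CPM in RT-112 and at 32.49 and 69.63 CPM in HT-1376.

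Further genes higher in both lines had roles in the matrix, in amine and sulfide metabolism and in organelles. *TNC*, encoding the matrix glycoprotein tenascin-C, was at 2.38 (KK) and 16.14 CPM (KC) in RT-112 and at 0.26 and 15.24 CPM in HT-1376. The HT-1376 KK value rests on few reads, CAL-29 KK was at 178.26 CPM, of which 0.75% is 1.34 CPM, and the ratio of 57.9 had an interval of 22.3 to 215; the variants with WWOX of HT-1376 ranged from 38.42 to 156.44 CPM, all above KC. *THBS1*, thrombospondin-1, was at 18.78 and 44.89 CPM in RT-112 and at 0.39 and 3.9 CPM in HT-1376, but WC was below WK in both lines, by 0.72 and 0.63. *IGFBP5*, a binding protein of insulin-like growth factors, was at 0.72 and 11.81 CPM in RT-112 and at 0.26 and 4.33 CPM in HT-1376 (mean log2 change 3.00, SE 0.51; limma adjusted p = 0.9999). It was also higher in WC than in WK in both lines, by 1.61 and 2.21. *AOC1*, the diamine oxidase that degrades histamine, was at 3.77 and 20.26 CPM in RT-112 and at 6.77 and 54.88 CPM in HT-1376. Its KA level was 19.41 CPM in RT-112, close to KC, and 19.35 CPM in HT-1376. *SQOR*, a mitochondrial enzyme of sulfide oxidation, was at 4.38 and 12.61 CPM in RT-112 and at 17.63 and 50.34 CPM in HT-1376. *CHST11*, a chondroitin sulfotransferase, was at 2.83 and 6.63 CPM in RT-112 and at 10.98 and 45.1 CPM in HT-1376, above all other libraries of each line, with WC below WK by 0.11 and 0.03. *DNM1L*, the GTPase of mitochondrial fission, was at 2.27 and 5.56 CPM in RT-112 and at 2.96 and 7.8 CPM in HT-1376. *ATP11B*, a phospholipid flippase, was at 6.59 and 15.66 CPM in RT-112 and at 3.49 and 8.15 CPM in HT-1376. The last 2 genes were low in all 4 libraries, and WC was below WK for *DNM1L* in both lines, by 0.17 and 0.51. Genes with a moderate level in every library also passed 2-fold in both lines. *LGALS1*, galectin-1, was at 35.74 and 75.47 CPM in RT-112 and at 53.4 and 200.24 CPM in HT-1376, and *HSP90AA1*, the inducible cytosolic chaperone, was at 32.97 and 69.32 CPM in RT-112 and at 42.29 and 111.25 CPM in HT-1376. For *LGALS1*, CAL-29 KK was at 1443.92 CPM, of which 0.75% is 10.8 CPM. These 2 genes and *GLIPR2*, *STEAP4*, *IGFBP5*, *IFI6*, *ISG15*, *TNF*, *IL1A* and *ERBB2* lay outside the rule for naming genes and were chosen after their values were seen.

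**Figure D3:**
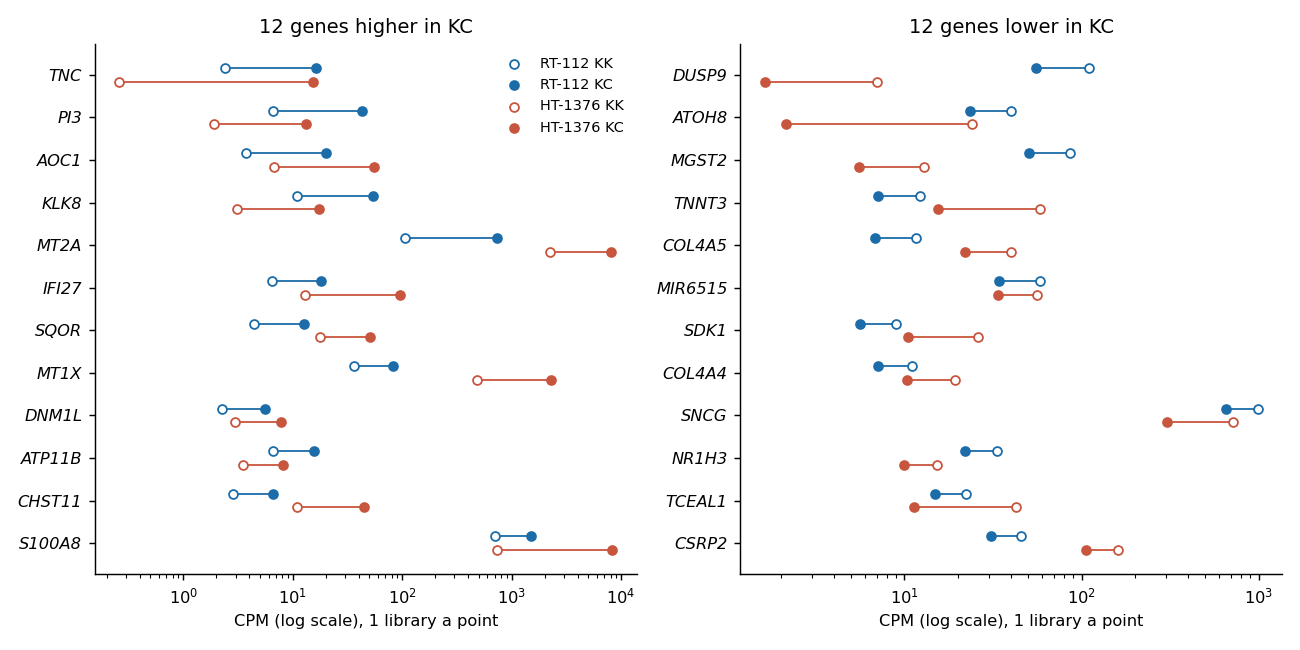
CPM on a log axis in KK (open) and KC (filled) of RT-112 (blue) and HT-1376 (red) for the 12 genes higher (left) and the 12 genes lower (right) in KC in both lines with the largest smaller change, 1 library a point. Filled points lie to the right of open ones at left, by up to 6.88-fold in RT-112 for *MT2A*, and to the left at right, where only *DUSP9* passed 2-fold in both lines.

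Fewer genes were lower in both lines, and their differences were smaller. *DUSP9*, a phosphatase that inactivates MAP kinases (chrX:153642492-153651326), was at 110.86 (KK) and 55.05 CPM (KC) in RT-112 and at 6.97 and 1.63 CPM in HT-1376. In RT-112 the KA library was lower still, at 49.77 CPM, and WC was higher than WK in both lines, by 0.26 and 0.93. *ATOH8*, a basic helix-loop-helix factor, was at 39.72 and 23.36 CPM in RT-112 and at 24.2 and 2.13 CPM in HT-1376. *MGST2*, a microsomal glutathione transferase of leukotriene synthesis, was at 85.54 and 50.67 CPM in RT-112 and at 12.89 and 5.53 CPM in HT-1376. *TNNT3*, a troponin of fast skeletal muscle, was at 12.19 and 7.11 CPM in RT-112 and at 57.94 and 15.39 CPM in HT-1376, and KC was the lowest library of both lines. *TNNT3* was also lower in WC than in WK, by 1.43 in RT-112 and 0.57 in HT-1376. The basement membrane chain *COL4A5* was at 11.58 and 6.79 CPM in RT-112 and at 40.18 and 21.91 CPM in HT-1376, and *COL4A4* was at 11.08 and 7.11 CPM in RT-112 and at 19.2 and 10.28 CPM in HT-1376. *SNCG*, encoding synuclein-γ, was the most abundant of these genes, at 990.35 and 652.95 CPM in RT-112 and at 721.09 and 304.83 CPM in HT-1376. *NR1H3*, the liver X receptor α of cholesterol efflux, was at 33.35 and 21.91 CPM in RT-112 and at 15.26 and 10.0 CPM in HT-1376. The other 4 of the 12 genes were *SDK1*, *TCEAL1*, *CSRP2* and *MIR6515*, a microRNA locus of 1 exon within other transcripts whose tags cannot be told from theirs. Of the 12 genes that were higher, 5 were higher in WC than in WK in both lines, against 23.8% of all genes. Of the 12 that were lower, 3 were lower in WC than in WK in both lines. The share of all genes lower in WC was not computed, so this count has no background.

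Interferon-stimulated genes, which are induced when interferons bind their receptors, were more often higher than lower in KC. Of 39 genes listed, 27 were retained, of which 19 were higher and 0 lower in both lines, compared with 31.0% and 17.1% of all genes; 6 of the 27 had passed the filter only through a KC library. Over the 27, the median change reached 0.46 in RT-112 and 0.79 in HT-1376, against 0.13 and −0.06 for all genes. *IRF9*, a transcription factor of the interferon response, was at 11.41 (KK) and 23.78 CPM (KC) in RT-112 and at 26.44 and 54.53 CPM in HT-1376. *IFI27*, a mitochondrial interferon-induced protein, was at 6.48 and 18.28 CPM in RT-112 and at 13.02 and 95.65 CPM in HT-1376. The RT-112 values of *IFI27* in the variants with WWOX ranged from 0.54 to 3.49 CPM, whereas those of HT-1376 ranged from 109.36 to 199.57 CPM, all above KC. Members differed between the lines, since *IFI6* was at 208.71 and 626.22 CPM in RT-112 and at 449.53 and 366.73 CPM in HT-1376, and *ISG15* was at 370.15 and 266.91 CPM in RT-112 and at 73.33 and 127.49 CPM in HT-1376. No member passed an adjusted p of 0.05 in the limma fit.

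Chemokines and cytokines of the interleukin-1 and TNF response passed 2-fold in HT-1376. Of 14 genes retained, 9 were past 2-fold higher in HT-1376, against 6.78% of all genes, and 0 in RT-112, against 1.87% of all genes, and the medians were 2.63 and 0.06; no member passed the test of the difference between the lines, and 6 of the 14 had passed the filter only through a KC library. *CXCL3*, a neutrophil chemokine, was at 2.1 (KK) and 24.46 CPM (KC) in HT-1376 and at 0.55 and 0.37 CPM in RT-112. *TNF* was at 5.13 and 34.18 CPM in HT-1376 and at 0.22 and 0.37 CPM in RT-112. *IL1A* was at 1.12 and 9.57 CPM in HT-1376 and at 0.55 and 0.32 CPM in RT-112. In HT-1376, 3 of the 5 other libraries were at or above KC for *CXCL3* and 2 for *CCL2*. The KA, WK, WA and WC libraries of HT-1376 were all above KK for *CXCL3*, at 9.82 to 46.14 CPM. For *CCL2* they were at 14.11 to 120.85 CPM, also above KK (2.76 CPM). The HT-1376 change of WC minus WK was −0.26 for *CXCL3* and 0.055 for *CCL2*. In CAL-29 KK, *CXCL3* was at 5.89 CPM, of which 0.75%, the median share of CAL-29 genes in HT-1376 KC, is 0.044 CPM. Since 8 of the 68 genes behind this median stood at 10% or more, it gives no bound for 1 gene. The source of the *CXCL3* reads was not tested.

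**Figure D4:**
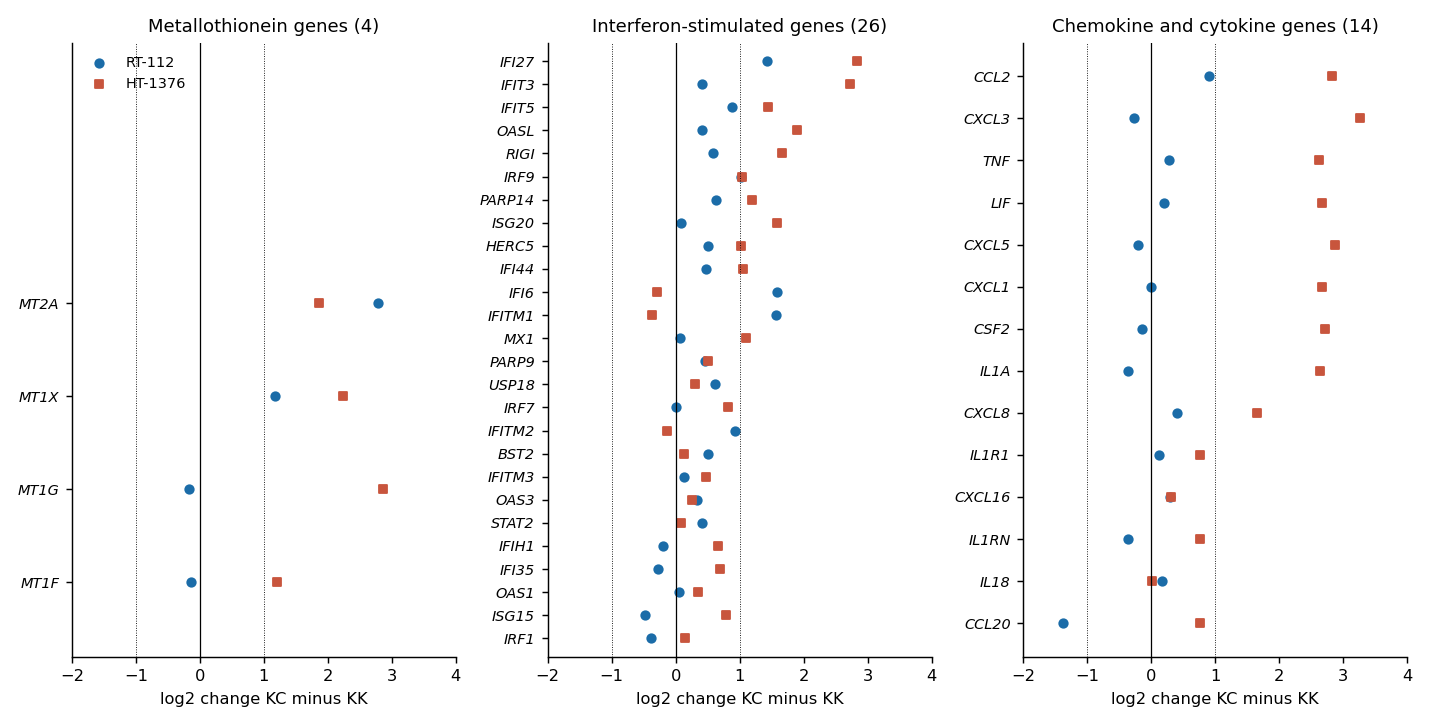
Log2 change of KC minus KK for retained members of 3 gene lists (4 metallothionein, 26 of the 27 interferon-stimulated, and 14 chemokine and cytokine genes), with RT-112 as circles, HT-1376 as squares and dotted lines at a 2-fold difference. Of the 26 interferon-stimulated genes drawn, 18 lie above 0 in both lines, and 9 chemokine and cytokine genes lie past 2-fold higher in HT-1376, compared with 0 in RT-112.

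Members of other lists also passed 2-fold more often in HT-1376, as did all genes, of which 6.78% were past 2-fold higher in HT-1376 and 1.87% in RT-112. Of the matrix, integrin and laminin genes, 31 were retained, of which 12 were past 2-fold higher in HT-1376 and 2 in RT-112, with 19 higher in both lines, against 31.0% of all genes (medians 0.74 and 0.17). Of these *LAMA3*, a chain of laminin-332, was at 2.56 and 48.29 CPM in HT-1376 and at 7.42 and 8.82 CPM in RT-112. The KA, WK, WA and WC libraries of HT-1376 were also above KK for *LAMA3*, at 13.33 to 70.17 CPM. Of the cornified envelope genes 6 of 11 were past 2-fold higher in HT-1376 (median 1.09) and 2 in RT-112 (median 0.14), 5 of the 11 through a KC library only. Of the basal and squamous keratin genes 6 of 17 were past 2-fold higher in HT-1376 and 2 in RT-112. *KRT17* was at 2.7 and 16.88 CPM in HT-1376 and at 940.7 and 724.14 CPM in RT-112, whereas *KRT1* was at 0.92 and 1.13 CPM in HT-1376 and at 0.72 and 29.34 CPM in RT-112. In HT-1376, *KRT17* was at 10.95 CPM in KA and at 35.15 to 48.48 CPM in WK, WA and WC, the latter above KC. In RT-112, *KRT1* was at 31.3 CPM in KA, above KC. The MHC class I and antigen processing genes had medians of 0.62 in HT-1376 and 0.01 in RT-112, with *HLA-B* at 662.81 and 1711.48 CPM in HT-1376 and at 42.88 and 48.9 CPM in RT-112. The luminal urothelial genes had medians of −0.29 in HT-1376 and 0.12 in RT-112. Of these genes 8 of 23 were lower and 4 higher in both lines, against 17.1% and 31.0% of all genes. The 1 member past 2-fold in both lines, *BAMBI*, was higher, at 0.0 and 2.13 CPM in HT-1376 and at 5.04 and 11.97 CPM in RT-112. *KRT19* was at 84.71 and 12.62 CPM in HT-1376 and at 6247.51 and 6812.24 CPM in RT-112, and *UPK3B*, a uroplakin, was at 48.93 and 9.71 CPM in HT-1376 and at 263.11 and 192.67 CPM in RT-112. DNA replication and mitosis genes had medians of −0.32 in HT-1376 and 0.33 in RT-112, and oxidative phosphorylation genes of −0.22 and 0.04, with 21 of 56 lower and 12 higher in both lines, against 17.1% and 31.0% of all genes.

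Few of the genes listed from the literature as AP-2 targets lay on the same side of KK in both lines. Of 28 listed, 17 were retained, of which 2 were higher and 3 lower in both lines, against 31.0% and 17.1% of all genes. The medians were 0.00 in HT-1376 and −0.10 in RT-112, against −0.06 and 0.13 for all genes. The receptor gene *ERBB2* was at 176.85 (KK) and 223.03 CPM (KC) in RT-112 and at 99.71 and 99.91 CPM in HT-1376. *CDH1*, encoding E-cadherin, was at 93.41 and 137.46 CPM in RT-112 and at 146.33 and 74.24 CPM in HT-1376. *CDKN1A*, the cell cycle inhibitor p21, was at 84.44 and 75.09 CPM in RT-112 and at 186.32 and 416.37 CPM in HT-1376. Only *MUC1* was past 2-fold in the same direction in both lines. Among cofactors of AP-2, *CITED2* was at 127.99 and 50.98 CPM in HT-1376 and at 15.57 and 16.46 CPM in RT-112, and *CITED4* was at 172.25 and 359.29 CPM in HT-1376 and at 34.24 and 25.44 CPM in RT-112.

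**Figure D5:**
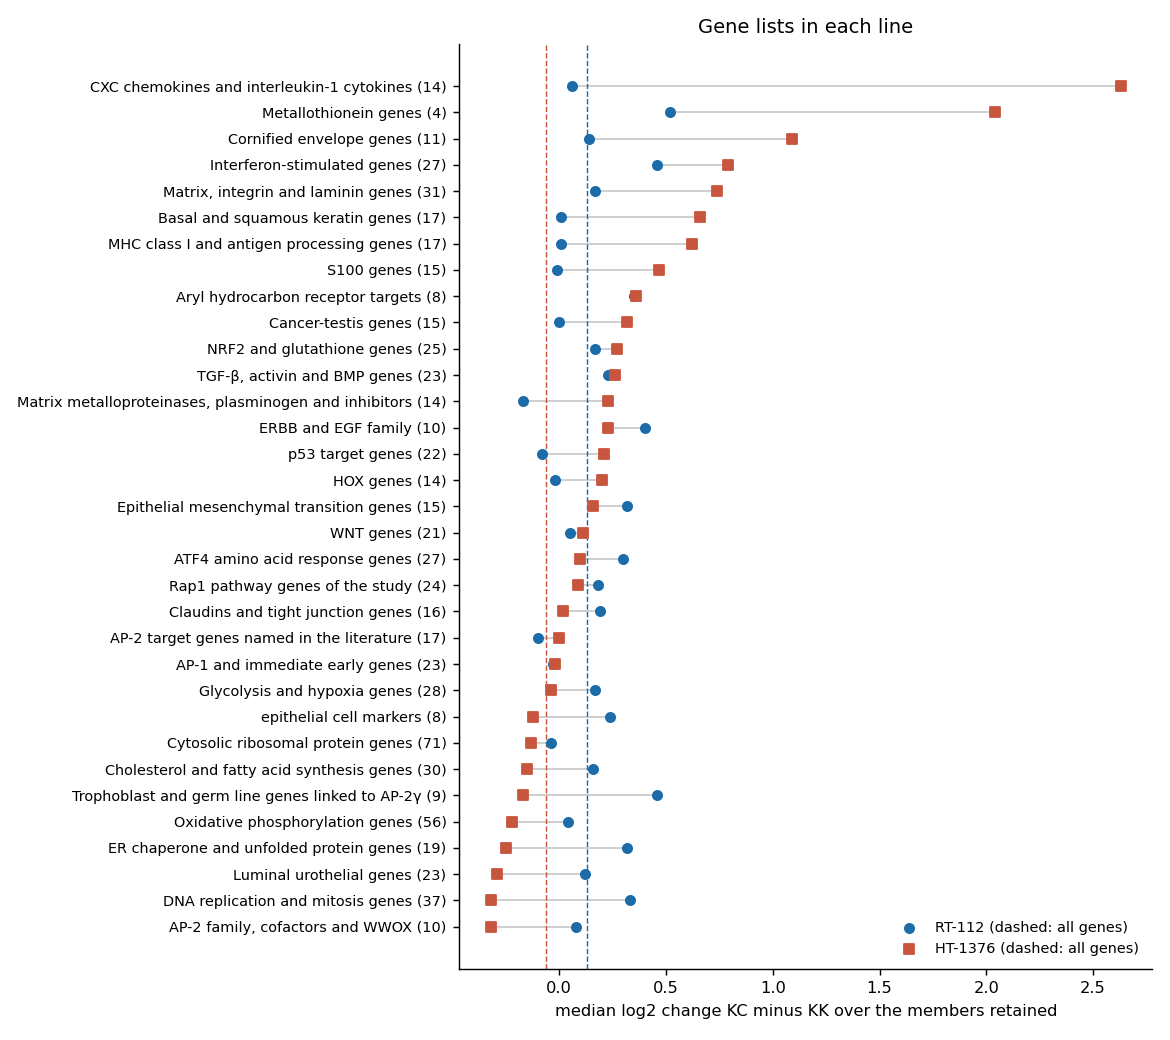
Median log2 change of KC minus KK over the retained members of each gene list with at least 4 of them (their number in brackets) in RT-112 (circles) and HT-1376 (squares), with dashed lines at the medians over all 11057 genes (0.13 and −0.06). The chemokine and metallothionein lists have the highest medians in HT-1376 (2.63 and 2.04), and in RT-112 the medians drawn lie between −0.17 and 0.52.

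The difference between the lines was tested over 8 libraries, in which WC against WK added an AP-2γ change in each line. No gene passed an adjusted p of 0.05 in the limma fit (smallest 0.4047), with 238 genes of a larger and 142 of a smaller change in HT-1376 at an unadjusted p under 0.05; edgeR on the recovered reads also called 0 genes, with 274 and 98 at an unadjusted p under 0.05. Past 2-fold in opposite directions were 11 genes higher in RT-112 and lower in HT-1376, and 10 genes the other way round. *IGFBP2*, another binding protein of insulin-like growth factors and the neighbour of *IGFBP5* on chromosome 2, had the smallest p. It was at 82.27 (KK) and 36.08 CPM (KC) in RT-112 and at 6.91 and 49.49 CPM in HT-1376, and its changes in the variants with WWOX had the same signs, −0.42 and 3.05 (difference between lines 3.70, SE 0.38; limma adjusted p = 0.4047).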

How the data were processed

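CAGE-seq was performed by the authors on total RNA of 6 variants of 3 bladder cancer cell lines. Per the study's methods, single-end reads of 75 nt were mapped to hg38 with BWA and unmapped reads with HISAT2 (v2.0.5), tags were clustered with Paraclu in the RECLU pipeline, and the authors deposited CPM per gene with 2 decimals. The annotation and the rule assigning clusters to genes are not given in the sources used here. Samples were grouped by title. Dividing by the worth of 1 read gave whole numbers for 99.97% to 99.99% of values (within 0.1 reads), so reads were recovered for the count tools, which were run as alternatives. Symbols came from GENCODE 44 (16553 of 16575 genes). Genes reaching 5 CPM in 1 or more of the 4 libraries were tested on log2(CPM + 0.5) in limma 3.58.1 (R 4.3.3, trended empirical Bayes, Benjamini-Hochberg adjustment) over the 12 libraries of RT-112 and HT-1376, with the cell line and the variant as terms and 5 residual degrees of freedom. KC and KK alone set the estimate. All 12 libraries, KC and KK among them, set the spread, so p-values take the spread between variants and lines as the error. The cell line pairs the libraries by design, and after subtraction of the variant means the libraries of 1 line correlated with r = 0.811 to 0.951. The difference between the lines was fitted over 8 libraries (KK, KC, WK and WC) with 2 residual degrees of freedom. Among libraries labelled as the same line, no pair was a duplicate. Pairs across line labels, such as CAL-29 KC with the HT-1376 libraries, were not compared in this way. The fits were run on simulated counts with the same spread for every gene and the same changes in both lines. That setting is simpler than these data, so the run checks the code only.

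Genes named were *TFAP2C*, *TFAP2A* and *WWOX*; the 12 higher and the 12 lower in both lines by the smaller change, with at least 5 CPM in both lines in the higher variant; 3 each way in opposite directions; and, per list, up to 4 members each way past 2-fold in both lines and 3 others, by size. Of the interferon-stimulated genes, 1 is not reported here by its own values. Members and lists were chosen with earlier results of these data known. Alternatives were pseudocounts of 0.05 and 2 CPM, other filters, TMM scaling, no block, fits of 4, 6 and 18 libraries, limma-voom, edgeR 4.0.16, DESeq2 1.42.0 and each library left out. Computations used Python 3.11.15 with pandas 2.3.3 and SciPy 1.17.1, and plots matplotlib 3.10.9.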

Additional observations from a re-analysis of the deposited data

Results flagged for a closer look

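Genes with opposite changes in the lines were flagged because KC lay above KK in one line and below it in the other; the test of the difference is the limma fit over 8 libraries, in which none passed an adjusted p of 0.05 (0.4047 for *IGFBP2*, 0.4741 for *AHNAK2* and 0.9976 for the other 4). *ATP6V1B1*, a subunit of the proton pump, had a change of 1.70 in RT-112 and −1.98 in HT-1376 (difference −1.64, SE 1.01). *KIAA0040* had changes of 1.00 and −1.02 (difference −0.44, SE 0.72). *GRAMD2A* had changes of 1.32 and −0.95 (difference −1.04, SE 0.59). In the other direction, *AHNAK2* had changes of −1.24 in RT-112 and 1.30 in HT-1376 (difference 2.26, SE 0.36, adjusted p = 0.4741). *IGFBP2* had changes of −1.18 and 2.75, with the test in the report, and *CDA*, the cytidine deaminase, of −0.92 and 1.43 (difference 1.32, SE 0.78). The differences in the fit average the variants with and without WWOX, and for all 6 genes they are smaller in size than the differences of KC and KK alone.

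The library labelled CAL-29 KC was not used for the effect and was flagged for its *TFAP2C* level of 194.35 CPM, which lay above CAL-29 KK (87.95 CPM) and HT-1376 KK (158.24 CPM) and below HT-1376 KC (213.93 CPM).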

How the results depend on the processing

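The count of genes higher in KC past an adjusted p of 0.05 was 0 in the fit reported and moved to 1 with limma-voom, 2 with edgeR and 19 with DESeq2; it was 0 with the other pseudocounts, filters, TMM scaling, 4, 6 or 18 libraries, and 0 to 1 when a library was left out (1 gene, *IL24*, without RT-112 KK). The count of genes lower in KC was 0 throughout. Without the block for the cell line the count was 0 as well, with 19 genes at an unadjusted p under 0.05, all higher, and the pairing changed no call. The fit of 6 libraries and the subtraction of the CAL-29 share were chosen after seeing the data. The genes past 2-fold higher in both lines were 108 with a pseudocount of 0.05 CPM and 15 with 2 CPM, and those lower were 7 and 0, and 3 with no filter, so these counts rest on genes with low values. After subtraction of 0.75% of the CAL-29 KK level from HT-1376 KC, 47 genes were past 2-fold higher, all among the 51. This share is a median over genes, so the subtraction cannot decide the matter for any single gene. The log2 change of *TFAP2C* ranged from 0.69 to 1.92 when a library was left out, without RT-112 KK and without HT-1376 KK, respectively. Of 458 recomputed changes of 32 named genes, 450 kept their direction, which was in part fixed in advance. The other filters, the fit without the block and the fits of 4 and 6 libraries cannot alter the change of KC against KK. That of *TNC*, for example, was 3.451 in each of them and in the fit reported. Most of these genes were also chosen by the direction of their changes in these libraries. The count of 450 is therefore no measure of robustness. In the fit of 18 libraries, which includes the library labelled CAL-29 KC, the changes of *DNM1L* (−0.13), *ATP11B* (−0.099), *TNNT3* (0.99), *SNCG* (0.22), *CSRP2* (0.096) and *TFAP2A* (0.30) reversed; the cause was not tested. When a library was left out, the change of *TFAP2A* ranged from −0.29 to 0.067 (reversed without HT-1376 KK) and that of *WWOX* from −0.49 to 0.092 (reversed without HT-1376 KC). The difference between the lines called 0 genes in every setting run. Depth limits genes near 3 reads, under 0.213 CPM in these libraries.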

Other observations

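Of the genes called as higher in KC by DESeq2, edgeR or limma-voom, some differed in a single line; those named were chosen after their values were seen. *SUSD2*, a membrane protein of the cell surface, was at 0.06 (KK) and 90.27 CPM (KC) in RT-112 and at 0.0 and 0.14 CPM in HT-1376 (DESeq2 adjusted p = 1.87e-13, edgeR adjusted p = 0.000187). *SPDEF*, a transcription factor of secretory epithelium, was at 0.22 and 23.62 CPM in RT-112 and had 0 reads in both HT-1376 libraries (DESeq2 adjusted p = 8.5e-05). *IL24*, a cytokine of the interleukin-10 family, was at 1.25 and 136.99 CPM in HT-1376 and had 0 reads in both RT-112 libraries (limma-voom adjusted p = 0.043, edgeR adjusted p = 0.00572). *NNMT*, which methylates nicotinamide, was at 30.52 and 494.43 CPM in HT-1376 and at 0.33 and 0.59 CPM in RT-112 (DESeq2 adjusted p = 0.0302). Of the 19 genes called by DESeq2, which do not include *IL24*, *ANXA6*, *CCL5*, *CHST11*, *IGFBP5*, *MT1X*, *MT2A*, *S100A7*, *SLCO2A1* and *STEAP4* were past 2-fold in both lines. In the limma fit reported, all 19 had an adjusted p near 1.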
